A study of Schmidtea mediterranea with 32 samples.

Results

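Among the contigs of the sexual planarian assembly that held at least 30 CPM on average (CPM, the count scaled to the total of its library), 167 of 2216 (7.54%) had no counterpart with the same counts in the asexual assembly. A counterpart was defined as a SmedASXL sequence whose total count lay within 5% of that of the SmedSXL contig and whose log2(count + 1) values correlated with it at a Pearson r over 0.95 across the 31 libraries compared. The other 2049 contigs had such a match and serve as the comparison at the same abundance. The contigs were thus chosen by their mean CPM, total counts and correlations in these libraries, and those values are given as a description and were not tested. The table lists 177783 sequences, of which 93783 carry the SmedSXL and 83469 the SmedASXL prefix. That these prefixes stand for a sexual and an asexual transcript assembly was read from the names alone.

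The libraries were made from poly(A) RNA of whole Schmidtea mediterranea of the sexual S2F2 biotype. The groups were animals under NHR-1 RNAi after 4, 6, 8 and 11 feedings and animals under UNC RNAi, used here as the matching control, after the same numbers of feedings. Each group has 4 libraries, except the control at 6 feedings with 3. A control library labelled 7 feedings was kept out of all comparisons. The labels name neither the age of the animals, nor whether animals were pooled, nor what UNC stands for, and they do not say that libraries came from separate animals, so p-values measure the spread between these libraries, which may be technical.

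As background, planarians of the sexual biotype are hermaphrodites with testes, ovaries, yolk glands and copulatory organs, whereas asexual animals reproduce by fission and lack a mature reproductive system. Nuclear hormone receptors are transcription factors that often respond to small lipophilic ligands, and nhr-1 is known for its requirement in the planarian reproductive system. RNAi by feeding lowers the transcript of a chosen gene in the whole animal. The deposited table does not pair identifiers with gene names, so no gene, pathway or organ can be assigned to any contig below, and the transcript of nhr-1 could not be looked up (not analysed here). In whole animals, fewer cells of a type and less RNA per cell cannot be told apart.

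The column totals ranged from 11.2 M to 19.7 M counts and those on SmedSXL contigs from 4.91 M to 9.13 M. Whether a read that matched both assemblies was counted on each is not stated in the labels, so a contig and a near copy may share reads. The most abundant contig, SmedSXL_088910 (1006 bases), is among the matched ones and took 6.77% to 47.5% of the SmedSXL counts of a library. It held over 33.3% in 3 libraries, replicate s2 under nhr-1 RNAi at 4 feedings and replicates s2 and s3 of the control at 11 feedings. Their factors from the TMM normalization (trimmed mean of M-values) were 0.533, 0.365 and 0.353, against 0.741 to 1.40 in the others. The counts of lower contigs at each time point, and of higher contigs at 11 feedings, are given with and without these 3 libraries.

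The label "without asexual match" held for the counts but not for the pattern across libraries. All 167 contigs had SmedASXL sequences within 5% of their total (at least 2, median 95), and 161 had at least 1 SmedASXL sequence at r over 0.95, but in no case were both conditions met by the same sequence. Only 6 contigs had no SmedASXL sequence at r over 0.95. The highest correlation with any SmedASXL sequence had a median of 0.9974 and a minimum of 0.9133. It was over 0.99 for 133 of the 167 contigs (79.6%), against 2006 of the 2049 matched contigs (97.9%), and over 0.999 for 41 (24.6%) against 1857 (90.6%). Correlation alone did not single out a partner, since a median of 11 SmedASXL sequences, and up to 725, passed r over 0.95 for 1 contig. Raw counts share the library size, and with r taken on log2 CPM 183 contigs had no match.

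The 161 contigs with a SmedASXL sequence at r over 0.95 lacked a match because every such sequence had a total outside the 5% band. Count ratios outside that band thus follow from the rule here, and the rule requires a sequence inside it for matched contigs. The ratios are given as a description, for the most correlated asexual sequence of each contig. That sequence held between 0.0374 and 4.59 times the counts of the contig, with a median of 0.875. It held under 0.5 of the counts for 36 contigs, 0.5 to 0.95 of them for 87, and over 5% more counts than the contig for 44. It was shorter than the contig and had fewer counts in 96 cases, and it was longer and had more counts in 32. The count ratio followed the length ratio, with a correlation of 0.663 between their log2 values across the 167 contigs, which are not independent of each other and share libraries and read counting. For 130 of the 167 the count ratio lay within 1.5-fold of the length ratio, and the median of the count ratio over the length ratio was 1.04. In the matched contigs the medians of the length ratio and the count ratio were 0.999 and 0.995. The count ratio lay within 1.5-fold of the length ratio for 1951 of the 2049 matched contigs, a larger share than among the 167. The correlation of the log2 ratios was 0.343 in the matched contigs. For 963 of them the most correlated sequence was shorter and had fewer counts. Whether the 2 sequences of such a pair come from the same gene was not tested.

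**Figure D1:**
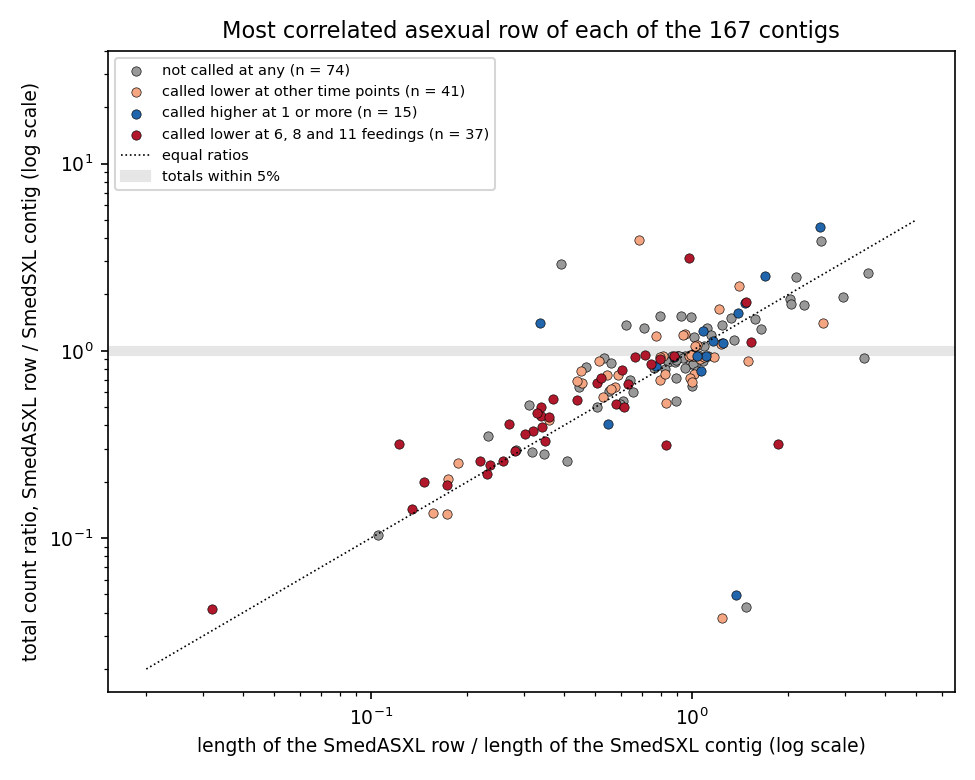
For each of the 167 contigs, the most correlated SmedASXL sequence is placed by its length (x axis) and its total count (y axis) relative to the contig, both on log scales, and coloured by the RNAi calls described below. Most points lie near the dotted line of equal ratios. Of the 36 with under 0.5 of the counts, 25 (69.4%) were lower at 8 feedings, against 11.3% of all tested sequences.

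The contigs without a match were shorter. Their median length was 897 bases (range 208 to 14137), against 1530 bases for the matched contigs (range 201 to 15573), and 44 of them (26.3%) were under 500 bases, against 176 (8.59%). Their mean level had a median of 63.3 CPM, against 55.4 CPM, and per 1000 bases of contig the medians were 76.9 CPM and 39.8 CPM. A second SmedSXL contig with a total within 5% and r over 0.95 was found for 34 (20.4%), against 1263 (61.6%) of the matched ones, and a sequence with an accession-style identifier for 9, against 265. These are descriptions of the whole lists, and no test was made between them.

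The contigs at the edge of the definition can be placed by value. The lowest mean level inside was 30.09 CPM, and the highest just below the limit among contigs without a match was 29.87 CPM. The highest correlation with a sequence inside the 5% band was 0.9498 among the 167, and the lowest among the matched contigs was 0.9504. The smallest difference in total from a sequence at r over 0.95 was 5.1% among the 167, and the largest among the matched was 4.94%. For 69 of the 167 this difference was at most 10%.

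Between libraries, the 167 contigs varied more than the matched ones. The standard deviation of log2(CPM + 1) over the 31 libraries, with CPM scaled to column totals, had a median of 0.83, against 0.654. Within groups, after subtracting each group mean, the medians were 0.6 and 0.556. All 167 contigs together took 3.58% to 4.74% of the SmedSXL counts in the nhr-1 RNAi libraries and 4.24% to 5.99% in the control libraries.

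The effect of nhr-1 RNAi was then read for the 167 contigs from a fit of edgeR's quasi-likelihood model to all 45762 sequences that passed the filter on low counts, with Benjamini-Hochberg adjustment over all of them and a call at an adjusted p under 0.05. All 167 contigs and all 2049 matched contigs passed the filter. Fold changes are nhr-1 RNAi over control. CPM values of single contigs from here on are scaled by the TMM factors. In all, 78 of the 167 contigs (46.7%) were lower under nhr-1 RNAi at 1 or more time points, against 375 of the matched (18.3%) and 22.9% of all tested sequences. Higher at 1 or more time points were 15 (8.98%), against 314 (15.3%) and 7.74%, and 0 of the 167 were called in both directions. The remaining 74 (44.3%) were called at no time point, against 1360 (66.4%) of the matched contigs and 69.4% of all sequences. These shares include the libraries dominated by 1 contig and are not given without them. The larger matched share of higher contigs came from 11 feedings, with 306 called, against 50 without the dominated libraries. Without those libraries 4.19% of the 167 were higher at 11 feedings, against 2.44% of the matched. With all libraries compared, the shares higher at 6 and 8 feedings were 2.99% and 5.99%, against 1.22% and 1.66% of the matched.

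At 6 feedings 40 of the 167 contigs were lower (24%), against 132 of the matched (6.44%) and 9.54% of all tested sequences. At 8 feedings 52 were lower (31.1%), against 141 of the matched (6.88%) and 11.3% of all sequences. The lower contigs had a median log2 fold change of -2.39 at 6 feedings and -2.66 at 8 feedings, with 38 of the 40 and 50 of the 52 past 2-fold. The median over all 167 contigs was 0.117 at 6 feedings and -0.0912 at 8, against 0.27 and 0.194 in the matched contigs and 0.183 and 0.151 in all sequences. Most of the 167 contigs were not called at these time points. Without the 3 libraries dominated by 1 contig, 54 were lower at 6 feedings (32.3%), against 7.42% of the matched and 13.3% of all sequences, and 60 at 8 feedings (35.9%), against 7.86% and 14.6%. In libraries named with s alone, 24 were lower at 6 feedings and 43 at 8. With a replicate block, which treats same-named libraries as pairs, 28 were lower at 6 feedings and 46 at 8. The libraries named 1 number 1 in each group, so they were not tested alone.

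At 11 feedings 71 contigs were lower (42.5%), against 371 of the matched (18.1%) and 21.8% of all sequences. These 71 had a median log2 fold change of -2.60, with 30 at 8-fold or more. The median over all 167 contigs was -0.871, but -0.106 without the 3 dominated libraries, 2 of which belong to this control. Without those libraries 57 contigs (34.1%) were lower, against 150 matched contigs (7.32%) and 11.7% of all sequences. With column totals in place of TMM, 40 were lower, and with the replicate block 56. At 4 feedings 2 contigs were lower (1.2%), against 11 of the matched (0.537%) and 0.299% of all sequences. Without the 3 dominated libraries 3 were lower there (1.8%), against 18 of the matched (0.878%) and 0.516% of all sequences.

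The higher contigs were fewer. At 6 feedings 5 were higher (2.99%), against 25 matched contigs (1.22%) and 0.59% of all sequences. At 8 feedings 10 were higher (5.99%), against 34 (1.66%) and 0.964%, and at 11 feedings 12 (7.19%), against 306 (14.9%) and 7.1%. Without the 3 dominated libraries the order at 11 feedings was different, with 7 higher (4.19%), against 50 matched contigs (2.44%) and 0.708% of all sequences. At 4 feedings 0 were higher by edgeR, with 3 at an unadjusted p under 0.05, and 0 by DESeq2, against 0.00219% of all sequences. These counts depended on single libraries. The count at 6 feedings was 1 without control replicate s1, 2 without control replicate 1 and 3 without nhr-1 RNAi replicate s1. The replicate block, which treats same-named libraries as pairs, left 1 higher at 6 feedings. The count at 8 feedings was 1 without control replicate 1, 2 without nhr-1 RNAi replicate s3 and 3 without control replicate s2 or without nhr-1 RNAi replicate s2. The count at 11 feedings was 25 without control replicate 1, 7 without control replicate s2 and 6 without control replicate s3.

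**Figure D2:**
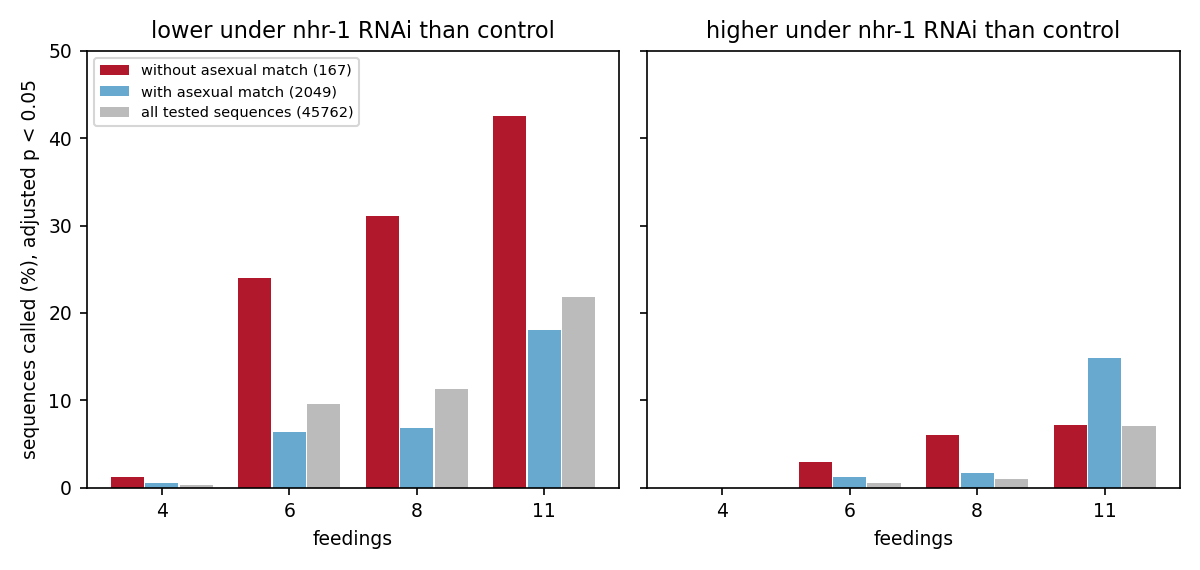
Bars give the percentage of sequences called lower (left) or higher (right) under nhr-1 RNAi than control at each number of feedings, for the 167 contigs without an asexual match, the 2049 with one and all 45762 tested sequences. At 8 feedings the lower shares are 31.1%, 6.88% and 11.3%.

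Because the correlation limit saw the same libraries, the shares were also taken for other ways of matching. With r computed on log2 CPM after subtracting group means, while totals and mean CPM still came from all 31 libraries, 198 contigs had no match, and 35.4% of these were lower at 8 feedings, against 6.1% of those with a match. With r and totals taken from the control libraries alone, 139 contigs had no match and 43.9% were lower at 8 feedings, against 6.36%. The limit on mean CPM still used all 31 libraries there, and the control libraries also form part of the RNAi comparison. That definition is thus not independent of the calls. Over all 10 other definitions the share lower at 8 feedings ranged from 27.3% to 43.9% in contigs without a match and from 4.03% to 11.8% in those with one.

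Contigs whose most correlated asexual sequence was much less counted were the most often lower. Of the 36 contigs for which that sequence held under 0.5 of the counts, 25 (69.4%) were lower at 8 feedings. Of the 87 at 0.5 to 0.95 of the counts 19 (21.8%) were lower, and of the 44 with over 5% more counts 8 (18.2%). At 6 feedings the counts were 23, 13 and 4. No test was made between these classes, which were formed after the values were seen. The 36 include SmedSXL_017910, SmedSXL_051791, SmedSXL_013992 and SmedSXL_088958, which had no asexual sequence at r over 0.95. For others many passed that limit, such as 203 for SmedSXL_002155 and 216 for SmedSXL_017918, so the most correlated one is not a known partner. Of the matched contigs 46 had a most correlated sequence under 0.5 of the counts, and their calls were not counted.

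The lower contigs were grouped by the time points at which they were called, which does not test a difference between time points. A set of 37 contigs was lower at 6, 8 and 11 feedings (22.2%), against 129 matched contigs (6.3%) and 3889 of all tested sequences (8.5%). All 37 were also called at these 3 time points without the 3 dominated libraries. In log2 fold change their median was -0.477 at 4 feedings, -2.44 at 6, -2.74 at 8 and -3.00 at 11. They took 0.128% to 0.315% of the SmedSXL counts in the nhr-1 RNAi libraries at 6, 8 and 11 feedings, against 0.918% to 2.52% in the control libraries at those time points. The contigs were chosen by their calls in these same libraries, so this separation follows from the choice and is given as a description. At 4 feedings they took 0.769% to 1.27% under nhr-1 RNAi and 0.874% to 1.84% in the control, which overlap. The most correlated asexual sequence of these contigs was short, with a median of 0.358 of the contig's length and 0.45 of its counts, and it was shorter with fewer counts in 33 of the 37. A second SmedSXL contig with a total within 5% and r over 0.95 was found for 19 of them, so how many genes they stand for is not known. Between pairs of the 37 the correlation of log2(CPM + 1) over libraries had a median of 0.83, and after subtracting group means 0.248.

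Of the 37, 8 were at least 16-fold lower at 8 feedings, with log2 fold changes between -7.38 and -4.30. Their median was -0.92 at 4 feedings, -4.15 at 6, -6.13 at 8 and -8.03 at 11. They were short, from 223 to 1727 bases with a median of 392. The other 29 fell less, with a median of -2.33 at 6 feedings, -2.67 at 8 and -2.46 at 11, with values from -3.69 to -0.774 at 8 feedings. These had a median length of 1283 bases, and their most correlated asexual sequence had a median of 0.339 of the length and 0.407 of the counts.

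A further 26 contigs (15.6%) were called lower at 11 feedings and at no other time point, against 234 of the matched (11.4%) and 10.9% of all sequences. Their median log2 fold change was -1.93 there and -0.0631 at 8 feedings. Without the 3 libraries dominated by SmedSXL_088910, 4 of these 26 were called lower at 11 feedings, as were 6 of the 234 matched contigs. Their most correlated asexual sequence was of similar size, with a median of 0.997 of the length and 0.898 of the counts.

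**Figure D3:**
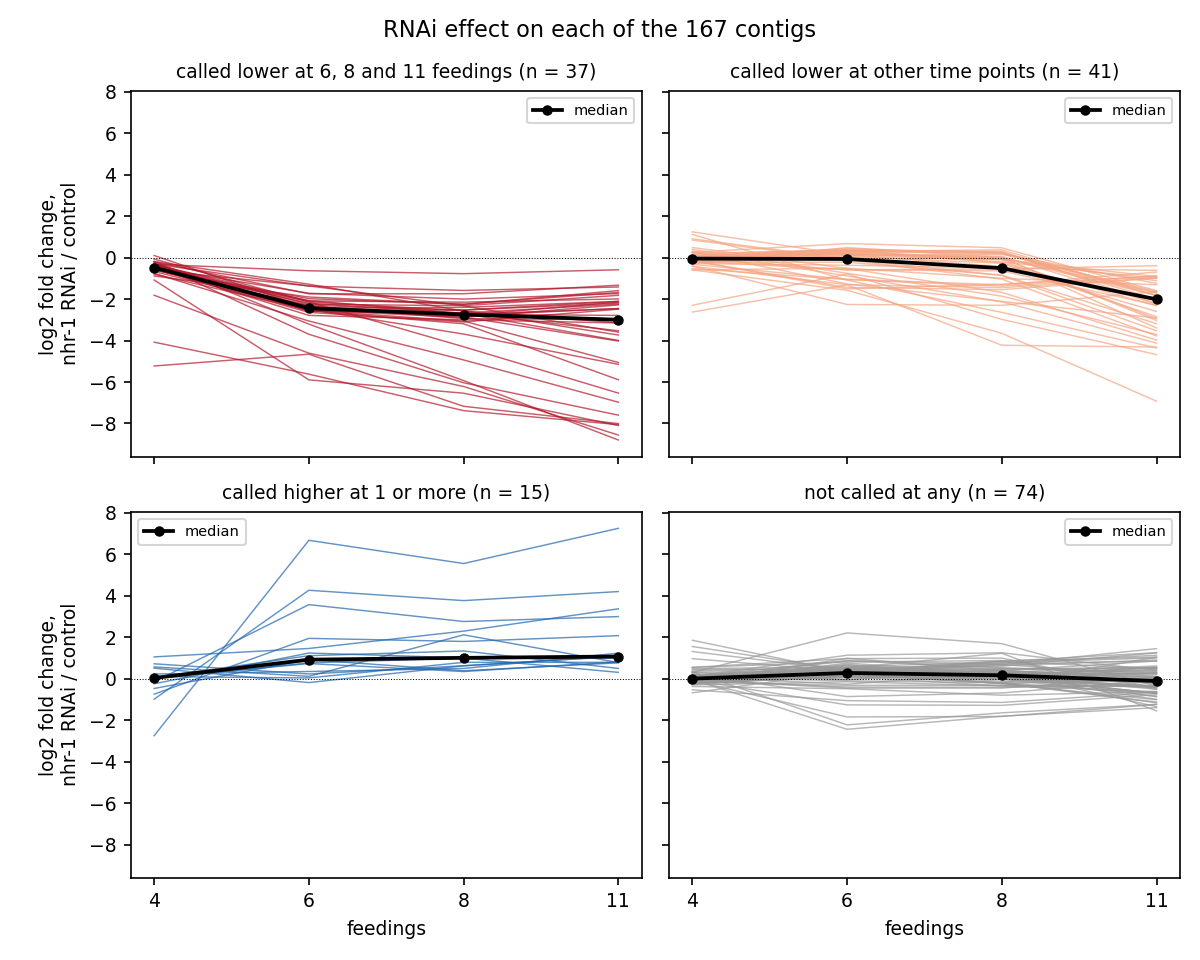
Lines give the log2 fold change of nhr-1 RNAi over control for each of the 167 contigs at 4, 6, 8 and 11 feedings, and black points the median of each panel. In the 37 contigs called lower at 6, 8 and 11 feedings the median is -0.477 at 4 feedings and -2.44 at 6. In the 74 contigs called at no time point it stays between -0.106 and 0.282. The panels were formed by these calls, so their difference follows from the choice.

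The RNAi effect differed between feedings for 32 of the 167 contigs (19.2%) by the F test of the same edgeR fit, against 84 of the matched (4.1%) and 4.12% of all sequences. With the replicate block the count was 20. The effect was more negative at 11 than at 4 feedings in 30 of the 32, and 19 of the 32 were among the contigs lower at 6, 8 and 11 feedings.

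Under the naming rule, which allows 2 contigs that fell and 2 that rose, SmedSXL_010192 and SmedSXL_010935 were taken for the most negative log2 fold change averaged over all 4 time points. At single time points other contigs fell further, down to -5.90 at 6 feedings and -8.80 at 11. SmedSXL_010192 and SmedSXL_010935 passed the limit on mean CPM through their control libraries, since that mean covered both groups. Under nhr-1 RNAi the group mean of SmedSXL_010192 was at most 1.3 CPM at any time point. That of SmedSXL_010935 was at most 2.67 CPM. SmedSXL_010192 is 1028 bases long. Its most correlated asexual sequence, SmedASXL_001441, is 623 bases long and held 0.792 of its counts at r = 0.9988. At 4 feedings it stood at 0.554, 0.531, 3.36 and 0.756 CPM under nhr-1 RNAi in replicates 1, s1, s2 and s3, against 32.2, 32.1, 11.0 and 0.788 CPM in the control. The control replicate s3 lay inside the range of the nhr-1 RNAi libraries, and the log2 fold change of -4.08 was not called (SE 0.942, edgeR adjusted p = 0.0564).

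At 6 feedings SmedSXL_010192 stood at 0.277 to 0.342 CPM in the 4 nhr-1 RNAi libraries, against 19.0, 6.00 and 22.0 CPM in the control. At 8 feedings it stood at 0.602, 0.119, 0.170 and 3.58 CPM under nhr-1 RNAi, against 41.6, 169, 378 and 155 CPM in the control. At 11 feedings it stood at 0.202, 0.0747, 0.272 and 0.507 CPM under nhr-1 RNAi, from 3, 1, 4 and 10 counts, against 111, 99.3, 61.5 and 31.5 CPM in the control. The groups did not overlap at these 3 time points, while the control libraries themselves spanned 6.00 to 378 CPM. The log2 fold changes were -5.62 (SE 1.06), -7.38 (SE 1.04) and -8.06 (SE 1.12), with edgeR adjusted p = 0.000468, 8.64e-06 and 3.72e-06.

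SmedSXL_010935 is 1727 bases long, and its most correlated asexual sequence, SmedASXL_001156, is 584 bases long and held 0.45 of its counts at r = 0.9968. At 4 feedings it stood at 1.20, 2.59, 5.21 and 1.66 CPM under nhr-1 RNAi, against 34.5, 287, 52.6 and 7.09 CPM in the control. The groups did not overlap, although the controls differed widely, and it was called at a log2 change of -5.23 (SE 0.871, edgeR adjusted p = 0.0056). The call was lost without nhr-1 RNAi replicate 1 (edgeR adjusted p = 0.0516) and when just the pair of groups was fitted (edgeR adjusted p = 0.607). Without control replicate s1 the log2 change was -3.67 and was still called.

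At 6 feedings SmedSXL_010935 averaged 1.10 ± 0.473 CPM under nhr-1 RNAi (SD, n = 4) and 28.2 ± 6.99 CPM in the control (SD, n = 3). At 8 feedings the averages were 1.37 ± 0.898 and 198 ± 129 CPM (SD, n = 4 each), and at 11 feedings 0.807 ± 0.478 and 208 ± 157 CPM (SD, n = 4 each). The groups were apart at all 3 time points. The log2 fold changes were -4.66 (SE 0.88), -7.17 (SE 0.946) and -8.01 (SE 0.99), with edgeR adjusted p = 0.000482, 3.73e-06 and 7.79e-07. For neither contig was the effect called different between feedings (edgeR adjusted p = 0.224 for SmedSXL_010192 and 0.207 for SmedSXL_010935).

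The other contig lower at 4 feedings, described here after its values were seen, is 355 bases long and held 871 CPM on average. Its level at 4 feedings was 124, 143, 292 and 126 CPM under nhr-1 RNAi, against 710, 2500, 838 and 188 CPM in the control. The control replicate s3 lay inside the range of the nhr-1 RNAi libraries. The log2 change of -2.63 was called (SE 0.593, edgeR adjusted p = 0.0452), but not when just the pair of groups was fitted (edgeR adjusted p = 0.945). At 6 feedings it was not called, with 194 ± 121 CPM under nhr-1 RNAi (SD, n = 4) and 483 ± 49.5 CPM in the control (SD, n = 3; edgeR adjusted p = 0.222). At 8 and 11 feedings it was lower, with log2 fold changes of -4.23 and -4.32 (edgeR adjusted p = 1.92e-05 and 9.21e-06). The number of contigs called at 4 feedings was fragile. It was 0 without nhr-1 RNAi replicate 1 and 4 without control replicate s3 at 4 feedings or control replicate 1 at 11 feedings. It was 1 when any of 19 other libraries was left out, among them replicates s1 and s3 under nhr-1 RNAi and replicates 1, s1 and s2 of the control at 4 feedings.

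The rises under the naming rule were those of SmedSXL_012989 and SmedSXL_088958, the only contigs called higher at 3 time points with no overlap between groups at any of them. SmedSXL_012989 is 448 bases long. Its most correlated asexual sequence, SmedASXL_074705, is 496 bases long and held 0.94 of its counts at r = 0.9999, and whether the same reads were counted on both was not tested. At 4 feedings it stood at 11.0 to 99.2 CPM under nhr-1 RNAi and 40.5 to 216 CPM in the control and was not called (log2 fold change -0.983, edgeR adjusted p = 1). At 6 feedings it stood at 14.7, 642, 19.8 and 158 CPM under nhr-1 RNAi, against 11.1, 8.61 and 12.6 CPM in the control.

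SmedSXL_012989 stood at 95.7, 298, 387 and 879 CPM under nhr-1 RNAi at 8 feedings, against 3.04, 40.1, 12.4 and 65.9 CPM in the control. At 11 feedings the values were 132, 1220, 402 and 893 CPM under nhr-1 RNAi, against 2.92, 33.3, 80.4 and 27.5 CPM in the control. In the nhr-1 RNAi groups at 6, 8 and 11 feedings the replicate named 1 was the lowest library each time. The log2 fold changes were 4.27 (SE 1.29), 3.77 (SE 1.11) and 4.21 (SE 1.14), with edgeR adjusted p = 0.0288, 0.0205 and 0.00685. With the replicate block, which treats same-named libraries as pairs, the value at 6 feedings was 1.96 (edgeR adjusted p = 0.364). It was also not called at 6 feedings without nhr-1 RNAi replicate s1, where it was 2.56, nor without any 1 of the 3 controls (4.15 to 4.40), nor when just the pair of groups was fitted (4.17, edgeR adjusted p = 0.0826). At 8 feedings the call was lost without control replicate 1 (3.39), control replicate s2 (3.51) or nhr-1 RNAi replicate s3 (3.10).

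SmedSXL_088958 is 218 bases long and had no asexual sequence at r over 0.95. Its highest r was 0.9229, with SmedASXL_001995, which held 0.0494 of its counts. At 6 feedings it stood at 85.7, 100, 130 and 156 CPM under nhr-1 RNAi, against 53.2, 23.7 and 72.5 CPM in the control. At 8 feedings the values were 93.3, 106, 132 and 124 CPM under nhr-1 RNAi, against 33.0, 50.3, 74.4 and 68.1 CPM in the control, and at 11 feedings 98.1, 160, 158 and 126 CPM, against 53.9, 90.3, 77.7 and 50.9 CPM. The nhr-1 RNAi libraries lay above the controls at each of these time points, but the nearest libraries stood close, at 85.7 CPM against 72.5 CPM at 6 feedings, 93.3 against 74.4 CPM at 8 and 98.1 against 90.3 CPM at 11. The log2 fold changes were 1.24 (SE 0.339), 1.01 (SE 0.306) and 0.99 (SE 0.306), with edgeR adjusted p = 0.0136, 0.0247 and 0.017. At 4 feedings the means were 89.0 ± 27.1 CPM under nhr-1 RNAi and 105 ± 15.7 CPM in the control (SD, n = 4 each; edgeR adjusted p = 1).

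The calls of SmedSXL_088958 were weak. With column totals in place of TMM it was not called at 6 feedings (0.88, edgeR adjusted p = 0.466) or 8 feedings (0.94, edgeR adjusted p = 0.287), and without the 3 dominated libraries not at 11 feedings (0.84, edgeR adjusted p = 0.165). When just the pair of groups was fitted it was not called at 6 (edgeR adjusted p = 0.135) or 11 feedings (edgeR adjusted p = 0.0819). At 8 feedings it was not called in libraries named with s alone (edgeR adjusted p = 0.15) or with no filter on low counts (edgeR adjusted p = 0.171). At 6 feedings the call was lost without control replicate 1 or s1 (1.25 and 0.91). At 8 feedings it was lost without control replicate 1 or s1 (0.82 and 0.96) or nhr-1 RNAi replicate s2 or s3 (0.93 and 0.97). At 11 feedings it was lost without control replicate s3 (0.87) or nhr-1 RNAi replicate s2 (0.85).

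The largest fitted rises belonged to a contig of 208 bases, described after its values were seen, which fell outside the naming rule because its groups overlapped at 6 feedings. This contig passed the limit on mean CPM, which covered both groups, mainly through nhr-1 RNAi libraries. It held 0.205, 137, 0.434 and 9.45 CPM under nhr-1 RNAi at 6 feedings, against 0.462, 0.130 and 0.430 CPM in the control. At 8 feedings it held 8.19, 33.9, 79.8 and 110 CPM, against 0.310, 1.45, 0.231 and 2.92 CPM, and at 11 feedings 18.3, 204, 57.6 and 202 CPM, against 0.151, 0.912, 1.25 and 1.26 CPM. At 8 and 11 feedings the groups were far apart, with log2 fold changes of 5.56 (SE 1.52, edgeR adjusted p = 0.0116) and 7.26 (SE 1.7, edgeR adjusted p = 0.00207). At 6 feedings the fitted value of 6.68 rested on 1 library of 137 CPM, and with the replicate block it was not called (edgeR adjusted p = 0.534).

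A contig of 588 bases, also described after its values were seen, was called higher at 6, 8 and 11 feedings. Its level at 8 feedings was 284, 939, 1160 and 1590 CPM under nhr-1 RNAi, against 18.3, 213, 62.5 and 291 CPM in the control, and the groups overlapped through nhr-1 RNAi replicate 1 and control replicate s3. Its log2 fold changes were 3.58, 2.76 and 3.0 (edgeR adjusted p = 0.0173, 0.0304 and 0.0114), and at 6 feedings the call was lost with the replicate block (edgeR adjusted p = 0.0552).

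**Figure D4:**
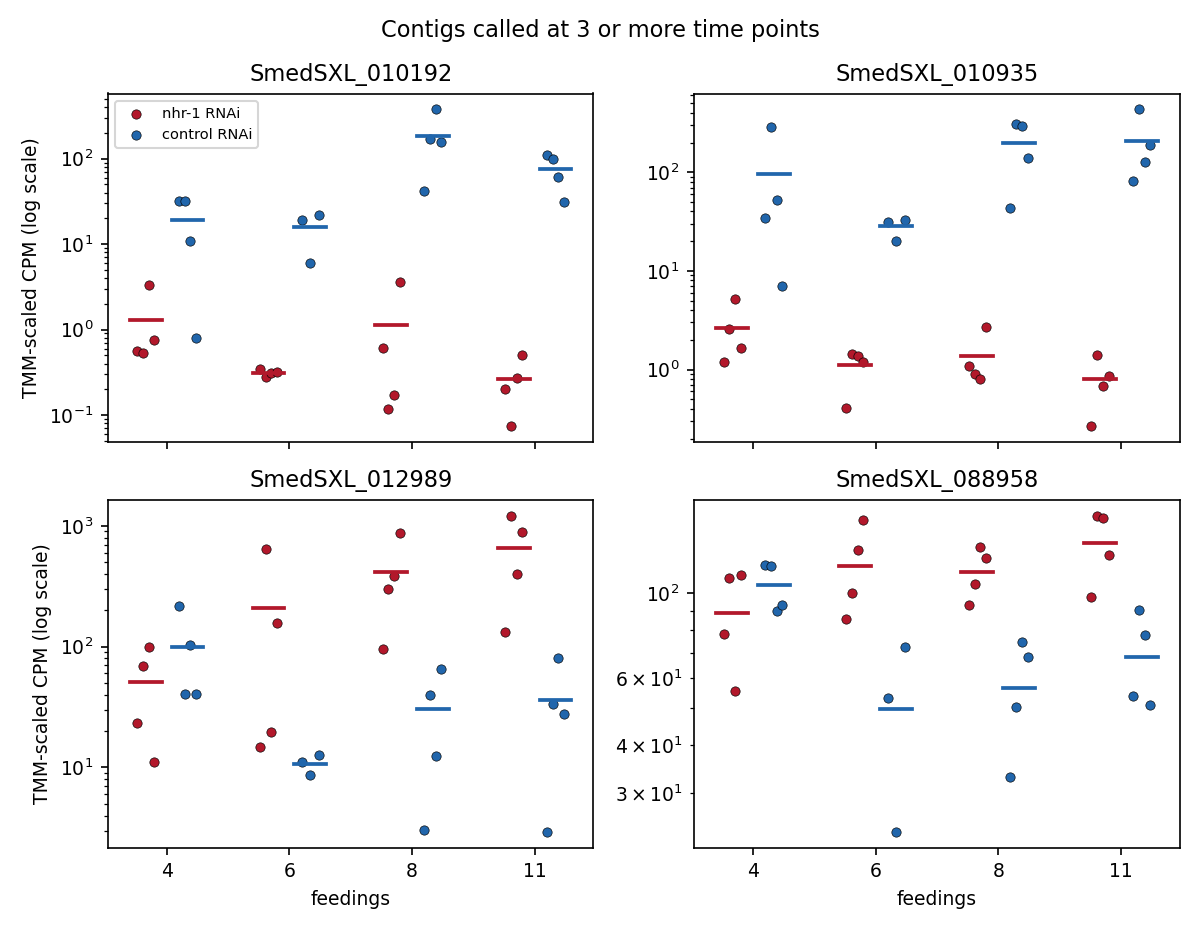
Points give the TMM-scaled CPM of each library on a log scale for the 2 named contigs that fell (top) and the 2 that rose under the naming rule (bottom), with nhr-1 RNAi to the left of control RNAi at each number of feedings and bars at the group means. The groups of SmedSXL_010192 overlap at 4 feedings through the control library at 0.788 CPM and are apart at 6, 8 and 11 feedings.

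The 74 contigs called at no time point were chosen for having no call, so medians near 0 follow from the choice. Lack of a call does not show lack of change. In simulated counts, not limited to contigs of this level, 5.97% to 11.9% of 2-fold changes were recovered. Their median log2 fold changes were 0.00855 at 4 feedings, 0.282 at 6, 0.17 at 8 and -0.106 at 11, with single values from -2.44 to 2.21 at 6 feedings. The most abundant of them, SmedSXL_011381 (677 bases), was number 17 in abundance among the 2216 contigs and held 1830 CPM per 1000 bases. Its most correlated asexual sequence, SmedASXL_006552, is 414 bases long, or 0.612 of its length, and held 0.539 of its counts at r = 0.9997. At 8 feedings it stood at 929, 1040, 1090 and 1030 CPM under nhr-1 RNAi, against 790, 1560, 802 and 1010 CPM in the control, and the groups overlapped. Its log2 fold changes ranged from -0.367 (SE 0.345) at 11 feedings to 0.146 (SE 0.373) at 6. The 95% interval at 8 feedings, -0.699 to 0.651, leaves room for changes of that size in either direction.

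SmedSXL_004405 (1041 bases) held 917 ± 60.1 CPM under nhr-1 RNAi at 8 feedings and 747 ± 197 CPM in the control (SD, n = 4 each), a log2 fold change of 0.296 with a 95% interval of -0.193 to 0.785. Its most correlated asexual sequence was almost as long, at 0.953 of its length, and with 0.936 of its counts lay just outside the 5% band. SmedSXL_017594 (594 bases) had the same relation to its asexual partner, with 0.911 of the length and 0.942 of the counts, and it was the only SmedASXL sequence at r over 0.95. It held 546 ± 64.6 CPM under nhr-1 RNAi at 8 feedings and 441 ± 138 CPM in the control (SD, n = 4 each). Each of these contigs passed the threshold with column totals in place of TMM, with a lowest edgeR adjusted p over the time points of 0.0391 for SmedSXL_004405 and 0.0362 for SmedSXL_017594.

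SmedSXL_004167 (823 bases) differs in that its most correlated asexual sequence is of nearly the same length, 828 bases, yet held 0.875 of its counts at r = 0.9956. Its level was 644 ± 46.3 CPM under nhr-1 RNAi at 8 feedings and 487 ± 119 CPM in the control (SD, n = 4 each), with a log2 fold change of 0.402 and a 95% interval of -0.099 to 0.903. At the other time points its log2 fold changes were 0.312, -0.0431 and -0.00618 at 4, 6 and 11 feedings.

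The uncalled contigs with the lowest best correlation to any asexual sequence were SmedSXL_017910 and SmedSXL_013992. The correlation is one of counts across libraries, and likeness of the sequences themselves was not tested. SmedSXL_017910 (1341 bases) correlated at most at r = 0.9186, with SmedASXL_012290, which is 1.47 times as long and held 0.0431 of its counts. It stood at 87.9, 81.9, 80.4 and 77.6 CPM under nhr-1 RNAi at 8 feedings, against 105, 129, 85.1 and 97.2 CPM in the control. At 11 feedings the values were 81.2, 93.1, 86.0 and 77.9 CPM under nhr-1 RNAi, against 93.4, 143, 223 and 58.8 CPM in the control. At 11 feedings control replicate s3 lay below all nhr-1 RNAi libraries and the other 3 controls above them, and the log2 fold change of -0.615 (SE 0.335) was not called (edgeR adjusted p = 0.159). When just the pair of groups was fitted, its lowest edgeR adjusted p over the time points was 0.0232.

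SmedSXL_013992 (648 bases) correlated at most at r = 0.9324, with SmedASXL_013385, which is 264 bases long and held 0.257 of its counts. Its spread over libraries was small, with a standard deviation of log2(CPM + 1) of 0.216 on the scale of column totals. At 8 feedings it stood at 28.0, 28.1, 30.2 and 32.8 CPM under nhr-1 RNAi, against 25.1, 40.1, 20.3 and 21.9 CPM in the control. At 11 feedings it stood at 30.8, 38.5, 34.6 and 33.4 CPM under nhr-1 RNAi, against 22.8, 32.7, 58.6 and 112 CPM in the control. The 2 highest of these controls are the libraries dominated by SmedSXL_088910. The log2 fold change of -0.711 (SE 0.367) was not called (edgeR adjusted p = 0.138), but passed the threshold without control replicate 1 (edgeR adjusted p = 0.0269).

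**Figure D5:**
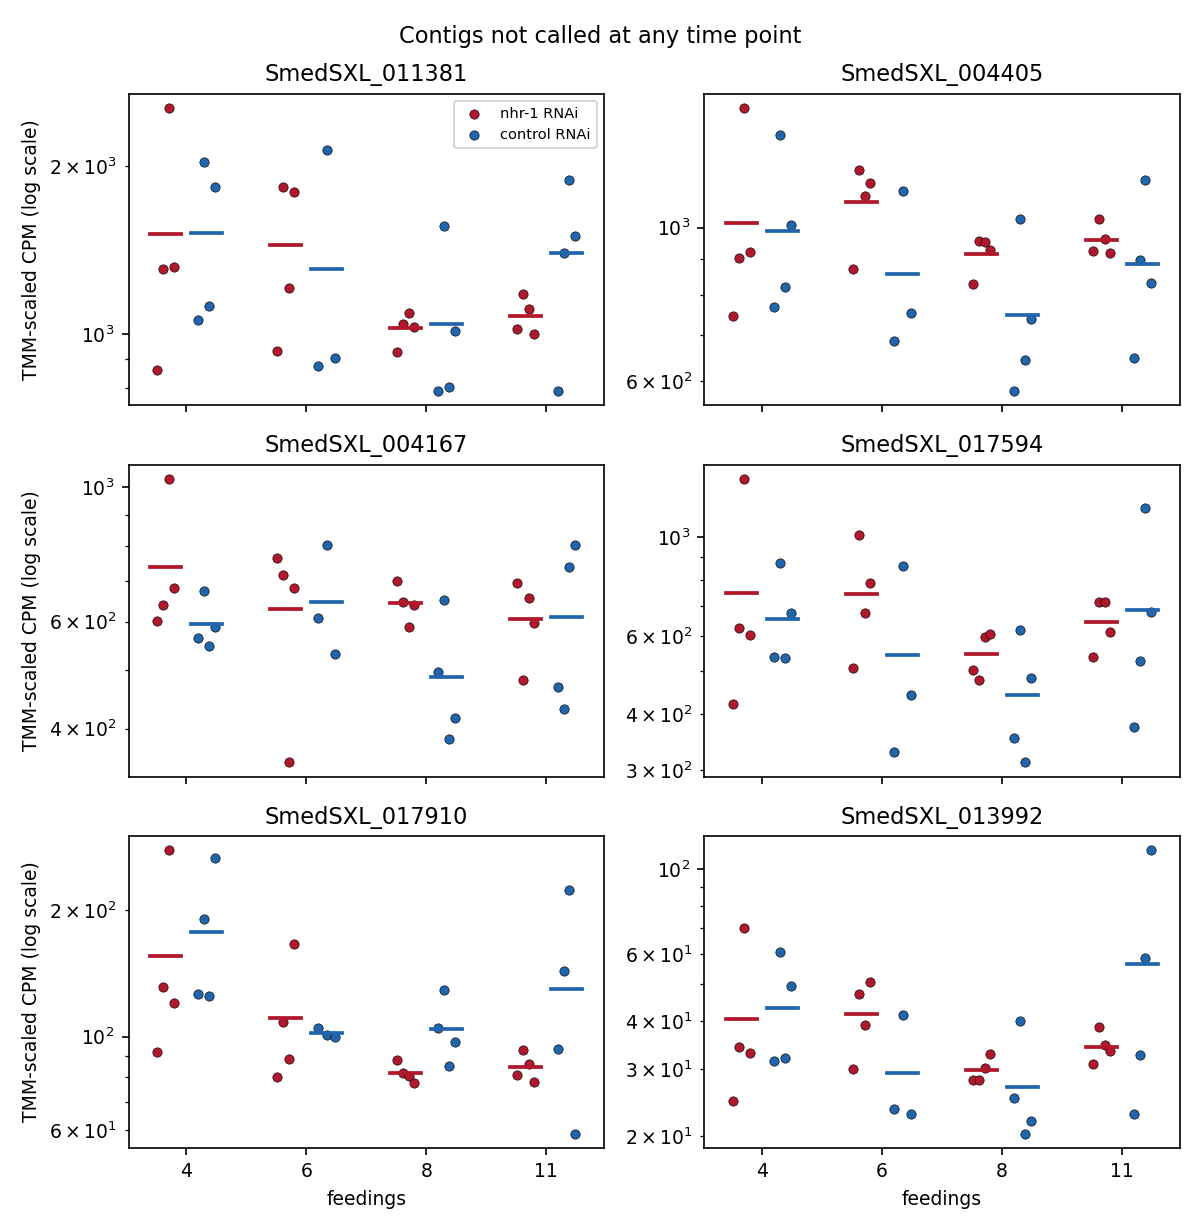
Points give the TMM-scaled CPM of each library on a log scale for the 4 most abundant contigs that were not called and the 2 that correlated least with any asexual sequence, with nhr-1 RNAi left of control RNAi and bars at the group means. The groups overlap at every time point, and the control libraries spread more widely than those of nhr-1 RNAi at 8 and 11 feedings.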

How the data were processed

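Whole-animal poly(A) RNA libraries were compared. The file deposited by the authors is 1 table of whole-number read counts per reference sequence, with sequence lengths. The submitters' processing notes name Bowtie2 and give no version. No source used here names the counting program, the strand setting or the handling of reads with several matches. All columns matched a library title, 0 were left unused, and a row naming no sequence held 0% of counts. Groups and replicate names come from the titles, because the descriptions repeat a replicate name among the controls at 11 feedings. That the code in the titles means NHR-1 comes from the descriptions.

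The contigs were chosen by the rule given above, with CPM as count over column total. The contigs, classes and tests were chosen with earlier results of these data known. Tests used edgeR 4.0.16 in R 4.3.3 (TMM, filterByExpr with a minimum count of 10 and minimum total of 15, 1 mean per group over 31 libraries, prior degrees of freedom 4.65). Intervals are the fold change ± 1.96 SE, with the SE from the F statistic. Named contigs were, on each side, the 2 with the largest mean log2 fold change among contigs called in 1 direction at 3 or more time points, the groups being apart at each, the 4 most abundant uncalled contigs and the 2 uncalled contigs with the lowest best correlation. Same-named libraries deviated together at 6 feedings (r 0.225 to 0.576 over 3 pairs) and 11 feedings (0.173 to 0.427 over 3 pairs). For the replicate block they were taken as paired there. Differently named libraries ranged from -0.68 to 0.582 at 6 feedings and from -0.436 to 0.31 at 11. Some correlated as strongly as same-named ones, so the names do not establish pairs, and the main fit is unpaired. Alternatives included DESeq2 1.42.0, other scalings, no filter, a replicate block, left-out libraries and other matching rules. The scripts were tested on simulated data.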

Additional observations from a re-analysis of the deposited data

Results flagged for a closer look

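In 77 groups of 4 libraries (the named contigs and the share of counts on all 167 contigs), 4 had a library far from the other 3 by Dixon's criterion, where chance gives about 1 in 20 groups. SmedSXL_010192 stood at 3.36 CPM in nhr-1 RNAi replicate s2 at 4 feedings, against 0.531 to 0.756 CPM in the other libraries of the group. The same contig stood at 3.58 CPM in nhr-1 RNAi replicate s3 at 8 feedings, against 0.119 to 0.602 CPM. SmedSXL_010935 stood at 2.70 CPM in that same library, against 0.794 to 1.08 CPM, and at 287 CPM in control replicate s1 at 4 feedings, against 7.09 to 52.6 CPM. Of the libraries concerned, nhr-1 RNAi replicate s2 at 4 feedings is among the 3 dominated by SmedSXL_088910.

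The RNAi effect differed between feedings for 32 of the 167 contigs by the edgeR F test. The control library labelled 7 feedings, which entered no comparison, held SmedSXL_017910 at 261 CPM on the scale of column totals, without TMM factors, against 222 CPM in the highest other control on that scale.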

How the results depend on the processing

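The 2 contigs lower at 4 feedings were 4 with DESeq2 or with no filter, 1 with RLE factors or with the control labelled 7 feedings counted at 6, and 0 in libraries named with s alone, when just the pair of groups was fitted, and with the replicate block. Leaving out 1 library gave 0 to 4. The 40 lower at 6 feedings were 24 in libraries named with s alone and 28 to 46 with 1 library left out, and the 52 lower at 8 feedings were 44 to 56. The 71 lower at 11 feedings were 40 with column totals, 47 when just the pair of groups was fitted and 55 to 81 with 1 library left out. The 5 higher at 6 feedings were 8 with DESeq2, 3 with column totals, 2 when just the pair of groups was fitted, 1 with the replicate block and 1 to 6 with 1 library left out. The 10 higher at 8 feedings were 5 in libraries named with s alone and 1 to 11 with 1 library left out. The 12 higher at 11 feedings were 19 with DESeq2 or column totals, 22 in libraries named with s alone, 5 when just the pair of groups was fitted, 7 without the 3 dominated libraries (an alternative chosen after seeing the data) and 6 to 25 with 1 library left out. The 32 contigs with a differing effect were 20 with the replicate block and 30 to 47 with 1 library left out. The causes were not tested. The number of contigs without a match was 84 at r over 0.90, 379 at r over 0.99, 98 at totals within 10%, 385 within 2%, 462 at a mean of at least 10 CPM and 56 at 100 CPM. SmedSXL_010935 was not called at 4 feedings in libraries named with s alone (edgeR adjusted p = 0.0512) or with the replicate block (edgeR adjusted p = 0.0559). The block treats same-named libraries as pairs there too, although the names do not establish pairs. Apart from SmedSXL_012989 at 6 feedings, the replicate block changed no other call of a named contig and no other of these counts by over 1.5 times. At 4 and 8 feedings same-named libraries correlated at -0.62 to 0.416 and 0.00599 to 0.257. Contigs that nearly vanished under nhr-1 RNAi rest on few counts there, such as 1 to 10 for SmedSXL_010192 at 11 feedings, which limits how large a fall can be measured.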

Other observations

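The control library labelled 7 feedings entered no comparison. It held 14.7 M counts, of whose SmedSXL part the 167 contigs took 5.93% and the 37 contigs lower at 6, 8 and 11 feedings took 1.64%. Both shares lie inside the range of the control libraries compared, 4.24% to 5.99% and 0.874% to 2.52%. SmedSXL_088910 took 21.5% of its SmedSXL counts.

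The 15 contigs higher at 1 or more time points had a most correlated asexual sequence that was slightly longer, with a median of 1.11 times their length and 1.1 times their counts, whereas for the 37 contigs the medians were 0.358 and 0.45. This difference was noticed in these data and was not tested. Of the 167 contigs, 21 had another of the 167 at r over 0.99.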
